A study of Saccharomyces cerevisiae with 13 samples.

Results

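Genes whose transcription start site (TSS) lies within 1 kb of an origin of replication were followed on newly replicated and on bulk chromatin of budding yeast. The members were every gene with a listed distance of at most 1000 bp to its nearest origin, with chromosome 12 left out, and they numbered 366 of the 6326 genes in the files. They sat around 235 listed origins on 15 chromosomes, and their median distance from the origin was 386 bp. Their reference was the 1312 genes that start 5 to 10 kb from an origin.

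The 12 nascent libraries came from asynchronous *rtt109Δ* cells that had incorporated EdU for 5 min and then thymidine for 5 min, harvested at 0, 2, 4, 6, 8, 15 and 25 min after the thymidine step. Micrococcal nuclease (MNase) was used on formaldehyde-fixed cells, the EdU-labelled strand was captured (NChAP), and 1 further library held MNase-digested bulk chromatin. By its title the bulk library is of the same *rtt109Δ* mutant, and its labels list 5 min of EdU and no thymidine time. All libraries shared a W303 background with the human nucleoside transporter h-ENT1 and a viral thymidine kinase, which let yeast take up and phosphorylate EdU. Replicate 1 lacked the 25 min point and replicate 2 the 0 min point, and the libraries of 1 replicate were aliquots of the same culture, so the p-values below cover the spread between libraries. Rtt109 acetylates lysine 56 of newly made histone H3, and the source label of these samples names a *CHD1* deletion instead. The titles of the 12 time-course samples call them input DNA, while their descriptions call them nascent chromatin purified by EdU-biotin pulldown. They are called nascent here after the descriptions, and if the titles held, the values given for nascent chromatin would be those of input chromatin before the pulldown. The mean signal over *CHD1* was 0.788 to 1.08 in replicate 1, 0.913 to 1.15 in replicate 2 and 1.06 in bulk. That over *RTT109* was 0.023 to 0.0675 in replicate 1 and 0.0632 in bulk, while replicate 2 lists all of chromosome 12, which carries the gene, at 0 in its 6 libraries.

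Replication in yeast starts at autonomously replicating sequences (ARSs), where the origin recognition complex binds a short T-rich element, the ARS consensus sequence, and keeps nucleosomes off. Forks leave the origin in both directions, and on each side 1 new strand is made as the continuous leading strand and the other in pieces as the lagging strand. Histones are placed on both new strands behind the fork. Genes beside an origin are the earliest genes that a fork from it covers.

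The listed origin positions were compared with the ARSs of the R64 reference assembly, using gene starts and ARS midpoints of R64 only. Of the 326 near-origin genes found in R64, 34.7% started within 1 kb of an annotated ARS and 185 genes within 2 kb, against 9 of 1182 genes (0.761%) at 5 to 10 kb that started within 1 kb. The listed position and the nearest annotated ARS stood a median of 1444 bp apart along the near-origin genes. The label "within 1 kb of an origin" therefore holds for the listed positions, and for about 1 in 3 members by the annotation. In R64, 124 of 352 annotated ARSs (35.2%, median length 241 bp) held an exact match to the ARS consensus sequence on either strand, against 17 of 694 windows (2.45%) of the same lengths 5 kb to either side. Matches are shown in capitals, 5′ to 3′ on the strand of the match with 35 bp of flank, so that the element can be set beside the distance to the gene. They were looked up for *TRP1*, the 13 members called for signal and the 10 members at either end of nascent over bulk signal. An annotated ARS had its midpoint within 2.5 kb of the start of 14 of these 24 genes, and for 6 genes it held an exact match, on the plus strand for 1 and on the minus strand for 5. For the other 8 genes, *IDH1*, *NCE103*, *PUS6*, *VMS1*, *MRPL37*, *YIA6*, *RVS161* and *APA1*, these letters had no exact match in the annotated ARS. The window shown around the plus strand match, flanks included, lies at chr1:159919-159999 (nearest *SEN34*). The windows around the matches on the minus strand of R64 lie at chr4:462561-462641 (*TRP1*), chr3:108925-109005 (*PGS1*), chr6:167691-167771 (*YFR012W-A*), chr7:485063-485143 (*BRP1*) and chr14:546102-546182 (*YNL042W-B*), with sequence from RefSeq.
ARS101: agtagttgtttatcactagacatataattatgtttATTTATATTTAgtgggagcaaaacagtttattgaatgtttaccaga
ARS1: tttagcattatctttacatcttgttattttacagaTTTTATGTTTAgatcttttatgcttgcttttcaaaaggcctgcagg
ARS307: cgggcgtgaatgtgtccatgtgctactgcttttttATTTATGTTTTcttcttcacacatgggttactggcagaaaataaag
ARS606: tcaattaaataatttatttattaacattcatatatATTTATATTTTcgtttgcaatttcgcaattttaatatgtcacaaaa
ARS719: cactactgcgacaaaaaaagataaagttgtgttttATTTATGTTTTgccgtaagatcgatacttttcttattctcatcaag
ARS1421: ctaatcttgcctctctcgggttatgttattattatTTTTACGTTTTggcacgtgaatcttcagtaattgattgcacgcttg
The midpoint of ARS101 lies 1051 bp downstream of the start of *SEN34* and that of ARS1421 992 bp upstream of *YNL042W-B*. The midpoint of ARS1 lies 752 bp downstream of the start of *TRP1*, that of ARS307 212 bp upstream of *PGS1*, that of ARS606 1550 bp upstream of *YFR012W-A* and that of ARS719 1784 bp downstream of *BRP1*. For *TRP1* the files place the origin (ARS416) 303 bp upstream of the TSS, on the other side of it from ARS1.

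The arrangement of the members was mixed. The origin lay upstream of the TSS for 215 genes and at or downstream of it for 151, and 173 genes started to the right of their origin and 193 to the left. A single member belonged to 125 origins, 91 origins had 2, 17 had 3 and 2 had 4, and at 69 origins a divergent pair of members started within 1 kb of each other. Near-origin genes replicated before the median gene of the series in 66.1% of cases, against 61.8% of the genes at 5 to 10 kb. RNA polymerase II occupancy was above the series median for 44.1% of the 315 near-origin genes with a value, against 50.1% of the distant genes. SAGA-dominated promoters were 12% of near-origin genes (44 genes) and 9.6% of distant genes. These annotations are given as descriptions, with no test.

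Relative to distant genes, signal over near-origin genes stood higher in later than in earlier nascent libraries. The signal of a 20 bp bin is coverage divided by its library mean, averaged here over both strands and from the TSS to 1000 bp, and a log2 ratio of 0 means equal signal in both gene groups. The log2 ratio of near-origin over distant genes in replicate 1 was -0.078 in the 0 min library, -0.0075 and -0.0026 in those of 2 and 4 min, 0.032 and 0.057 in those of 6 and 8 min, and 0.136 in that of 15 min. Replicate 2 gave -0.0375 and -0.021 for 2 and 4 min, 0.0255 and 0.068 for 6 and 8 min, and 0.102 and 0.110 for 15 and 25 min. In both replicates each later library stood above the one before it, and bulk chromatin had a ratio of 0.020, between the 4 and the 6 min libraries.

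**Figure D1:**
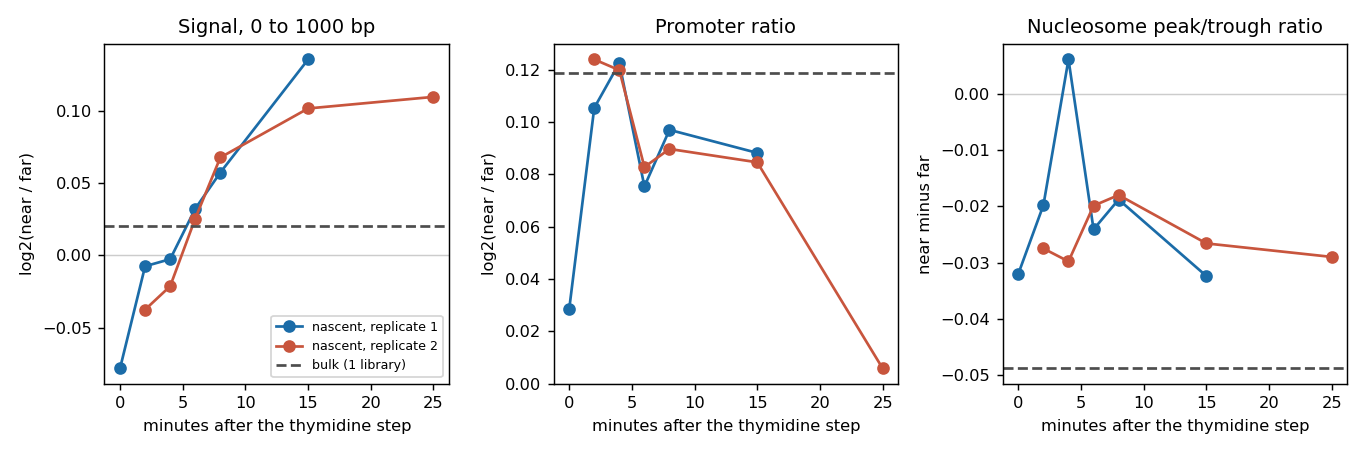
Difference between near-origin genes (366) and genes 5 to 10 kb away (1312) by minutes after the thymidine step, for signal and promoter ratio (log2 near over far) and for the nucleosome peak/trough ratio (near minus far). Points are single nascent libraries, joined by replicate, and the dashed line is the bulk library. The signal difference runs from -0.078 at 0 min to 0.136 at 15 min in replicate 1.

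The mean difference in signal was 0.0905 ± 0.0355 in the late libraries (8 and 15 min) and -0.017 ± 0.016 in the early libraries (2 and 4 min; SD, n = 4 each), a change of 0.108 on the log2 scale. The late and early libraries did not overlap. The exact two-sided permutation p was 0.0286, the smallest that 4 against 4 libraries can give, and 0.0571 after adjustment over the 4 late-early comparisons, which does not pass 0.05. With a replicate block, which permutes only within a culture, the exact p was 0.0556, again the smallest possible. The change was 0.101 within replicate 1 and 0.114 within replicate 2. Leaving out any single library or replicate moved it between 0.0928 and 0.119. Over all 12 nascent libraries together the difference averaged 0.032 ± 0.065 (SD), with 7 libraries above 0 and 5 below, and did not pass (exact two-sided sign-flip p = 0.119, adjusted p = 0.119). This value depended on the genes and libraries chosen. It was -0.0415 against all genes over 1 kb away (exact p = 0.118), the opposite direction, and it passed on the reverse strand alone (0.0505, exact p = 0.00928), with 1 gene per origin (0.0531, exact p = 0.02), among genes that replicate before the median (0.0831, exact p = 0.00684) and without the 0 min library (0.0419, exact p = 0.042).

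The late-early difference also varied with distance from the origin. From the 2 and 4 min to the 8 and 15 min libraries, the log2 signal differed by 0.176 in the 223 genes within 0.5 kb, 0.128 in the 143 genes from 0.5 to 1 kb, 0.132 in the 296 genes from 1 to 2 kb and 0.098 in the 888 genes from 2 to 5 kb. It differed by 0.049 at 5 to 10 kb, by -0.017 in the 1919 genes at 10 to 20 kb and by -0.082 in the 998 genes at 20 to 60 kb. The genes within 0.5 kb thus stood highest in this order and those beyond 20 kb lowest, and the classes at 0.5 to 1 kb and 1 to 2 kb stood side by side. Genes that replicate before the median were 69.5% of the closest class and 15.5% of the most distant one, so replication time moves with distance in these classes. Among genes that replicate before the median only (242 near-origin and 811 distant genes), the late-early change was 0.123 and the late and early libraries again did not overlap (exact permutation p = 0.0286, adjusted p = 0.0571).

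**Figure D2:**
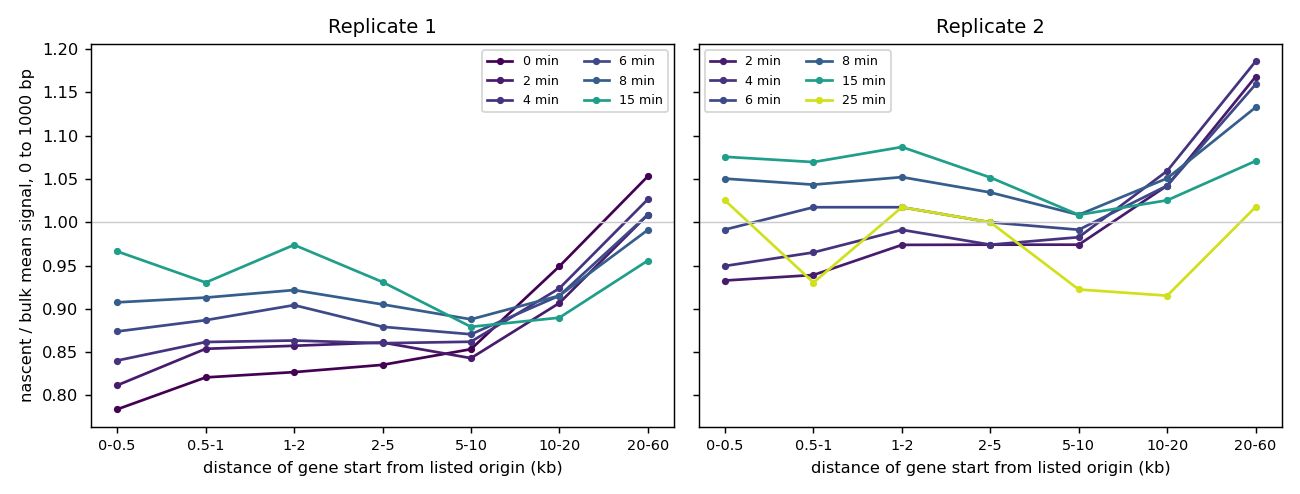
Mean nascent signal from 0 to 1000 bp over that of bulk chromatin (y axis) in 7 classes of distance between gene start and listed origin (x axis, kb), 1 line per nascent library, darker for earlier times. Lines cross near 5 to 20 kb: close to origins the 15 min libraries lie above the 2 min libraries, and at 20 to 60 kb below them.

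Just inside the limit of 1 kb, *NET1* (998 bp) had a mean signal of 1.11 in late and 1.04 in early libraries, and *YDR320W-B* (1000 bp) had 0.593 and 0.339 in late and early libraries. Just outside it, *RIM4* (1001 bp) had 1.16 in late and 0.956 in early libraries.

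Single genes were tested with limma on log2(signal + 0.1), late against early. Of the 362 near-origin genes tested, 12 (3.31%) rose past an adjusted p of 0.05, against 1.5% of all 5678 genes tested, and 1 fell (0.276%), against 0.176% of all. Among the 1295 distant genes tested, 20 rose and 1 fell. Signal was higher in late libraries within both replicates for 179 near-origin genes (49.4%), against 35.1% of all genes, and lower within both for 72 (19.9%), against 33.1% of all. The median change was 0.096 in near-origin genes, 0.044 in distant genes and 0.009 in all genes. With a replicate block, 35 near-origin genes rose and 2 fell, and the 13 called without it were among these. The block also raised the calls elsewhere, to 204 rising and 48 falling of all 5678 genes and 50 and 8 of the 1295 distant genes. The count of near-origin genes called fell to 0 when either replicate was left out or genes listed at 0 were kept.

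*IDH1*, a subunit of the mitochondrial isocitrate dehydrogenase of the citric acid cycle, and *NCE103*, the carbonic anhydrase, start on either side of the same listed origin, ARS1422. The signal over *IDH1* was 1.31 and 1.7 at 8 and 15 min in replicate 1 and 1.49 and 1.85 in replicate 2, against 0.887 and 0.766 at 2 and 4 min in replicate 1 and 0.89 and 0.929 in replicate 2. Every late library stood above every early library, and bulk had 1.55. The change of *IDH1* was 0.79 ± 0.14 (log2, SE; limma adjusted p = 0.011). For *NCE103*, the late libraries had 1.04 and 1.31 in replicate 1 and 0.679 and 1.47 in replicate 2, against 0.46 and 0.579 in the early libraries of replicate 1 and 0.472 and 0.498 in those of replicate 2. Again no early library reached a late one, with a change of 0.98 ± 0.19 (adjusted p = 0.0175, limma), the largest among the 12 genes that rose.

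*GLO3*, an ARF GTPase-activating protein of Golgi to endoplasmic reticulum transport, lies 598 bp from ARS517. Its late libraries had a signal of 0.683 and 0.734 in replicate 1 and 0.671 and 1.05 in replicate 2, against 0.312 and 0.282 in the early libraries of replicate 1 and 0.48 and 0.466 in those of replicate 2. The groups did not overlap, although the 0 min library of *GLO3* had 1.05. Its change was 0.87 ± 0.17 (limma adjusted p = 0.0242). *PUS6*, a tRNA pseudouridine synthase 259 bp from ARS731, changed by 0.69 ± 0.14 (limma adjusted p = 0.0242), with late values of 1.53 and 2.06 in replicate 1 and 1.67 and 1.81 in replicate 2, against early values of 0.907 and 1.01 in replicate 1 and 1.15 in both early libraries of replicate 2.

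On chromosome 1, *NUP60*, a nucleoporin, started 85 bp from ARS108 and *SEN34*, a subunit of the tRNA splicing endonuclease, 95 bp from ARS109. *NUP60* changed by 0.66 ± 0.14 (limma adjusted p = 0.0336) and *SEN34* by 0.70 ± 0.16 (limma adjusted p = 0.0441). The other genes that rose were *YFR012W-A*, an uncharacterized protein near ARS606, *VMS1*, a peptidyl-tRNA hydrolase of ribosome quality control, *YIA6*, the mitochondrial NAD+ transporter, *MEH1*, a subunit of the EGO complex at the vacuole, *MRPL13*, a mitochondrial ribosomal protein, and *YJL009W*. *MEH1* and *MRPL13* share ARS1114, so with *IDH1* and *NCE103* 2 of the origins had a pair of genes that rose. The changes of these 6 genes lay between 0.58 and 0.95.

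The gene that fell was *MRPL37*, which encodes a protein of the large mitochondrial ribosomal subunit and whose start lies 297 bp from ARS224. Its late libraries had 0.706 and 0.969 in replicate 1 and 0.835 and 0.604 in replicate 2, against 1.17 and 1.18 in the early libraries of replicate 1 and 1.36 and 1.51 in those of replicate 2. All late values lay below all early ones, with a change of -0.69 ± 0.15 (limma adjusted p = 0.0423).

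The 10 genes closest to a listed origin, all within 33 bp of it, did not pass the test in either direction. They were *YIL165C*, *HSP42*, a small heat shock protein, *BRP1*, which lies upstream of the proton pump gene *PMA1*, *YEL030C-A*, *TRS31*, a subunit of the TRAPP vesicle tethering complex, *YPR196W*, *YDC1*, an alkaline dihydroceramidase, *YMR175W-A*, *YHL048C-A* and *PTC5*, a mitochondrial protein phosphatase. Their changes ran from -0.46 for *YIL165C* (limma adjusted p = 0.127) to 0.37 for *YHL048C-A* (limma adjusted p = 0.266). *TRP1*, which encodes an enzyme of tryptophan synthesis and adjoins ARS1, had a signal of 0.667, 0.711, 0.641, 0.883, 1.17 and 1.29 in the libraries of replicate 1 from 0 to 15 min. In replicate 2 *TRP1* had 0.838, 1.11, 1.09, 1.03, 1.35 and 1.7 from 2 to 25 min, and 1.25 in bulk. The 4 min library of replicate 2 lay above the 8 min library of the same replicate, and the change of 0.52 ± 0.16 did not pass (limma adjusted p = 0.102).

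On average over all members, promoters of near-origin genes were less depleted of signal than those of distant genes. The promoter ratio is the mean signal from -150 to 0 bp over the mean from 0 to 1000 bp, and a lower ratio means a deeper nucleosome-depleted region (NDR). Up to 15 min it was 0.622 to 0.695 in near-origin genes and 0.583 to 0.656 in distant genes. The log2 ratio of near over far was above 0 in 12 of 12 nascent libraries, with a mean of 0.085 ± 0.036 (SD; exact sign-flip p = 0.000488, the smallest that 12 libraries can give, adjusted p = 0.00146). The lowest was 0.0059, at 25 min, and the highest 0.124, at 2 min in replicate 2. The mean was 0.108 with near-origin genes limited to 500 bp and 0.0966 with the limit widened to 2 kb, so the difference was not particular to the limit of 1 kb. In bulk the promoter ratio was 0.679 in near-origin genes and 0.625 in distant genes, a log2 difference of 0.119. The extent of MNase digestion in each library is not given in the sources used here, and its part in the promoter values was not tested. With replicate 2 left out, the promoter difference averaged 0.0862 over 6 libraries (exact sign-flip p = 0.0312, the smallest that 6 libraries can give, adjusted p = 0.0938). Without replicate 1 it averaged 0.0845 (exact sign-flip p = 0.0312, adjusted p = 0.0469).

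**Figure D3:**
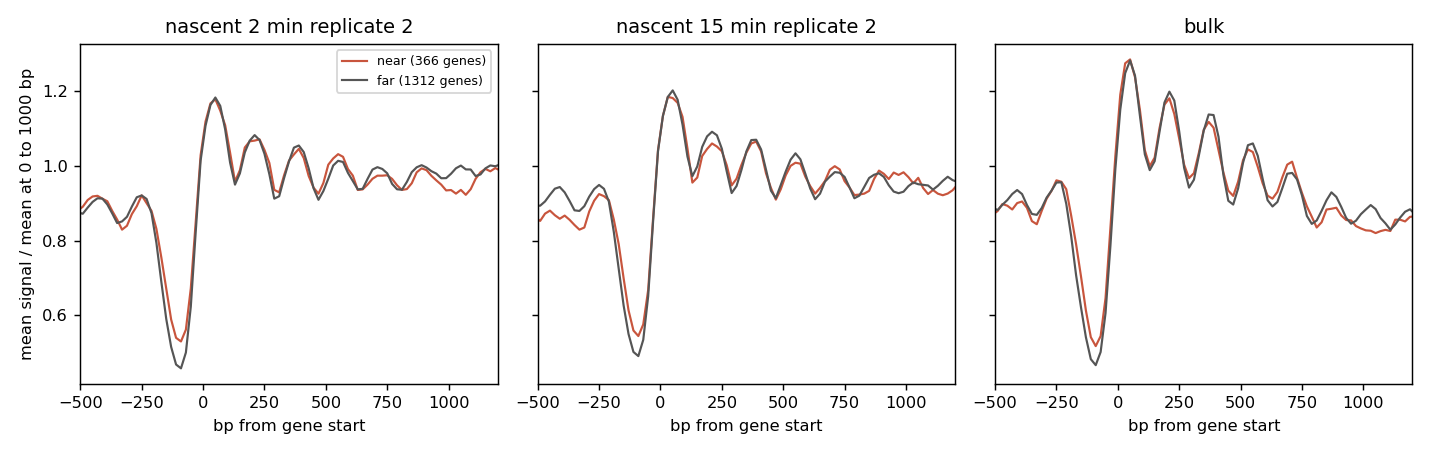
Mean signal by distance from the TSS (x axis, bp), divided by the mean from 0 to 1000 bp, for near-origin genes (366) and genes 5 to 10 kb away (1312) in the 2 and 15 min libraries of replicate 2 and in bulk. The trough before the TSS is shallower in near-origin genes in all 3 panels.

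The promoter difference had a lower mean late than early, which did not pass after adjustment, with 0.090 ± 0.005 in late and 0.118 ± 0.0085 in early libraries (SD, n = 4 each; change -0.028, exact permutation p = 0.0286, adjusted p = 0.0571, and 0.0556 with a replicate block). That change was -0.0014 when chromosomes 1 and 3 were left out (exact p = 0.857), -0.0045 with the median over genes, 0.0029 on the reverse strand alone and 0.047 with annotated origins.

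No near-origin gene changed its promoter ratio past the limma threshold between late and early, where 4 of 5665 genes rose (0.0706%) and none fell (0%). At an unadjusted p under 0.05, 10 near-origin genes rose and 10 fell of 361 tested, against 209 and 244 of all 5665 genes. The members with the smallest p, none of which passed, were *TCD2*, a tRNA-modifying enzyme (-1.04 ± 0.20, limma adjusted p = 0.183), *YMR245W* (-0.73 ± 0.21) and *YFL063W* (-1.22 ± 0.35) on the lower side. On the higher side they were *YNL042W-B* (1.30 ± 0.40), *YPL251W* (0.74 ± 0.23) and *RSM18*, a mitochondrial ribosomal protein (0.62 ± 0.20).

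Promoters that differed between nascent and bulk chromatin were about as common among near-origin genes as among all genes. These are values without a test, since bulk is 1 library. The mean promoter ratio of the 11 nascent libraries up to 15 min was over 2-fold above bulk in 15 of 360 near-origin genes, against 4.39% of all genes, and over 2-fold below it in 8, against 2.27% of all. The median log2 ratio was 0.006 in near-origin genes, 0.033 in distant genes and 0.048 in all genes. The lowest members were *FAS1*, the beta subunit of fatty acid synthase, with a promoter ratio of 0.265 in nascent chromatin (range 0 to 0.452) and 0.703 in bulk, and *VMA8*, a subunit of the vacuolar proton pump, with 0.272 (range 0.142 to 0.43) and 0.582 in bulk. They were followed by *PRP22*, a splicing helicase (0.464 in nascent and 0.985 in bulk), *RPS17A*, a ribosomal protein (0.338 and 0.721), and *YML003W* (0.52 and 1.09). In all 5 genes every nascent library up to 15 min stayed below bulk.

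At the other end, *PUP2*, the alpha 5 subunit of the proteasome, had a promoter ratio of 0.0745 in nascent chromatin (range 0.00975 to 0.218) and 0.0034 in bulk, so that both kinds of chromatin held little signal there. *MRX1*, a mitochondrial protein, had 0.463 (range 0.32 to 0.673) against 0.148 in bulk. *ENO2*, an enolase of glycolysis, had 0.568 (range 0 to 1.25) against 0.194, and *BRP1* 1.75 (range 0 to 6.49) against 0.28. *YHR173C*, which shares ARS820 with *ENO2*, had 4.47 against 0.594, with a range of 0 to 24.1 over the nascent libraries that covers the bulk value.

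Nucleosomes inside near-origin genes were slightly less contrasted. The peak/trough ratio of nucleosomes +2 to +7 was 1.027 to 1.096 in near-origin genes and 1.059 to 1.109 in distant genes across the nascent libraries, and 1.112 and 1.16 in bulk. The difference, near minus far, was below 0 in 11 of 12 nascent libraries, with a mean of -0.0226 ± 0.0104 (SD; exact sign-flip p = 0.000977, adjusted p = 0.00146), and -0.0488 in bulk. The library above 0 was the 4 min library of replicate 1 (0.0061), which was also among the shallowest, at 4.94 reads per bin. With replicate 2 left out, the difference was -0.0201 (exact sign-flip p = 0.0625, adjusted p = 0.0938), and without replicate 1 it was -0.0251 (exact sign-flip p = 0.0312, adjusted p = 0.0469). The difference was -0.0165 with near-origin genes limited to 500 bp and -0.0256 with the limit widened to 2 kb. It was thus not largest in the genes closest to an origin. Between late and early libraries the difference was within their spread, with -0.024 ± 0.007 late and -0.018 ± 0.0165 early (SD, n = 4 each; exact permutation p = 0.657).

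For single genes the peak/trough ratio gave no call by limma in either direction among 5508 genes tested (0% of all and 0 of 343 near-origin genes). At an unadjusted p under 0.05, 17 near-origin genes were higher and 13 lower, against 313 and 192 of all 5508 genes. The members of smallest p were *YNR005C* (0.21 ± 0.05), *PGS1*, a phospholipid synthesis enzyme (0.19 ± 0.05), and *LRE1* (0.14 ± 0.04) on the higher side. On the lower side they were *AIM39* (-0.23 ± 0.06), *ELP6*, a subunit of Elongator (-0.46 ± 0.13), and *YDR094W* (-0.42 ± 0.15), and none passed the adjustment.

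Around the listed origin positions, signal dipped 60 bp downstream along the gene. In 40 bp bins this was the lowest point within 200 bp in every library, at 0.765 to 0.87 of the mean from 200 to 600 bp in the nascent libraries up to 15 min, 0.966 of it at 25 min and 0.958 in bulk. In the 4 min library of replicate 1 the signal of that bin was 0.693, against 1.01 at 60 bp upstream and 1.03 at 140 bp downstream, and in bulk it was 1.03, against 1.37 and 1.41 at the same positions. For the 215 genes with the origin upstream of the TSS, bins downstream of the origin can fall in the gene's own promoter trough. The tested window spans the dip 60 bp downstream and the higher bins upstream of it. There the ratio of the mean within 100 bp of the position over the mean at 200 to 500 bp was 0.943 to 1.01 in the nascent libraries up to 15 min, 1.09 at 25 min and 1.11 in bulk. Late and early libraries had 0.981 ± 0.022 and 0.980 ± 0.029 (SD, n = 4 each; exact permutation p = 1). A deeper trough appeared around the annotated ARS midpoints, for the 257 genes that start within 1 kb of one in R64. There the ratio was 0.761 to 0.891 in nascent libraries up to 15 min, 1.08 at 25 min and 0.746 in bulk. It was 0.804 ± 0.037 in late and 0.827 ± 0.016 in early libraries (exact permutation p = 0.314), a difference smaller than the spread between libraries. Because gene starts of R64 stood in for the TSSs of the files here, the alignment is approximate. The part of the genes' own promoter troughs in the dip at the listed positions and in the trough at the annotated midpoints was not tested.

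**Figure D4:**
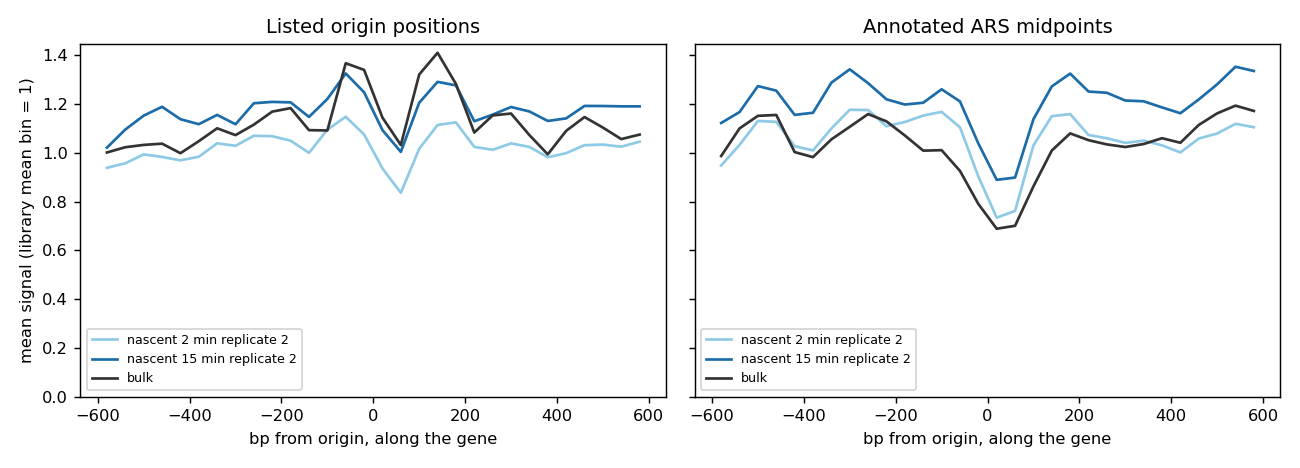
Mean signal (library mean bin = 1) by distance from the origin along the gene (x axis, bp, 40 bp bins), around listed origin positions (left, 366 genes) and around annotated ARS midpoints (right, 257 genes), in the 2 and 15 min libraries of replicate 2 and in bulk. The lowest bin near the listed positions is at 0.836 in the 2 min library, 1 in the 15 min library and 1.03 in bulk, and that near the annotated midpoints at 0.734, 0.889 and 0.689 in the same libraries.

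Sorting near-origin genes by annotated ARSs instead of listed positions gave a similar course of signal. The late-early change of the near over far signal was then 0.127 (257 near-origin and 1101 distant genes). It did not pass after adjustment (exact permutation p = 0.0286, adjusted p = 0.114). The promoter difference averaged 0.166 (exact sign-flip p = 0.000977, adjusted p = 0.00146). These comparisons were chosen after the files had been seen.

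Both strands of near-origin genes carried unequal nascent signal. For each gene the files name which strand was made as the leading strand, and log2 of leading over lagging signal from 0 to 1000 bp was below 0 in 12 of 12 nascent libraries, from -0.085 to -0.023, while bulk had 0.031. The mean was -0.059 ± 0.020 (SD, exact sign-flip p = 0.000488), so the strand labelled as lagging held more nascent signal. Distant genes had a mean of -0.009 ± 0.0155 (exact sign-flip p = 0.0684), and -0.004 in bulk. The difference between near-origin and distant genes was -0.050 ± 0.024 and below 0 in 12 of 12 libraries (exact sign-flip p = 0.000488). For 151 near-origin genes the listed origin lies at or downstream of the TSS, so the window from 0 to 1000 bp holds it. Leading and lagging strands swap at the origin, while the label of each gene was kept across the whole window. The values of these genes thus mix both kinds of strand. The windows of distant genes hold no listed origin, and the part of this in the difference was not tested. This comparison of strands too was chosen after the files had been seen.

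**Figure D5:**
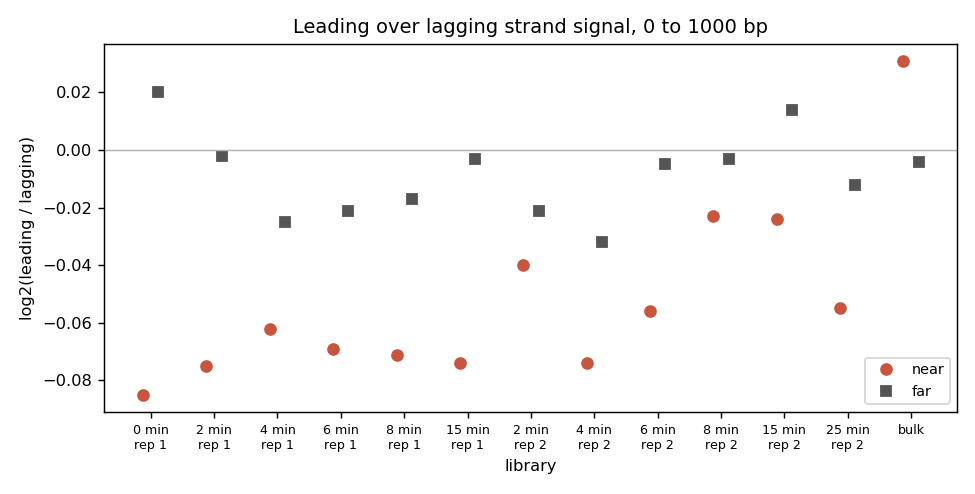
Leading over lagging strand signal from 0 to 1000 bp (log2) in each library, for near-origin genes (circles) and genes 5 to 10 kb away (squares). All nascent libraries of near-origin genes lie below 0, between -0.085 and -0.023, and bulk lies at 0.031.

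The mean of leading over lagging signal was below 0 on both sides of the origin, with unequal size. Genes to the right of it (173) had -0.093 ± 0.037, with 12 of 12 nascent libraries below 0, and 0.082 in bulk. Genes to the left (193) had -0.027 ± 0.026, with 10 of 12 nascent libraries below 0 and a highest value of 0.030, and -0.016 in bulk. The mean was -0.0359 with 1 gene per origin, -0.0506 with the median over genes and -0.0753 with annotated ARSs, against -0.0204 for genes at 1 to 2 kb and -0.0232 at 2 to 5 kb. Late and early libraries had -0.048 ± 0.028 and -0.063 ± 0.016 (SD, n = 4 each; exact permutation p = 0.314).

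Against bulk, the level of near-origin genes on nascent chromatin followed the chromosome. The 11 nascent libraries up to 15 min gave over 2-fold more signal than bulk in 0 of 363 near-origin genes, against 1.10% of all genes, and over 2-fold less in 2, *ENO2* and *BRP1*, against 0.789% of all. The median log2 nascent over bulk signal of all genes was 0.66 on chromosome 3 (0.56 in replicate 1 and 0.78 in replicate 2) and -0.50 on chromosome 1, and lay between -0.19 and 0.00 on the other chromosomes. Near-origin genes had medians of 0.56 on chromosome 3 (12 genes) and -0.59 on chromosome 1 (14 genes). Of the 5 members with the highest nascent over bulk signal, *APA1* at ARS305 (1.86-fold), *PGS1* at ARS307 (1.79-fold) and *RVS161* at ARS309 (1.66-fold) are on chromosome 3. The other 2 were *YDR320W-B* (1.7-fold) and *YFL063W* (1.67-fold), and the lowest were *ENO2* (0.426-fold), *BRP1* (0.497-fold), *YPR074W-A* (0.512-fold), *YNL042W-B* (0.521-fold) and *YDL071C* (0.532-fold). With chromosomes 1 and 3 left out, the late-early change of the near over far signal was 0.083 (exact permutation p = 0.0286, adjusted p = 0.114).

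Replication timing was also set beside the signal. Of the study's lists of early and late replicating genes, which it took from the known timing of origins and not from these samples, 11 near-origin genes were on the early list and 47 on the late list. Relative to distant genes, the log2 signal of the 11 early genes was 0.061 ± 0.023 in late and -0.066 ± 0.029 in early libraries, and that of the 47 late genes was -0.032 ± 0.032 and 0.010 ± 0.032 (SD, n = 4 each). The late minus early difference in signal was 0.127 for the early-listed and -0.042 for the late-listed genes. The log2 promoter ratio, near over far, averaged -0.126 ± 0.137 for the early-listed and 0.001 ± 0.114 for the late-listed genes over the nascent libraries. All near-origin genes averaged 0.085. The peak/trough difference averaged -0.029 ± 0.037 and -0.028 ± 0.019 for the early-listed and late-listed genes. The values of the listed genes were not tested.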

How the data were processed

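The authors deposited a table per replicate, and 1 for bulk chromatin, with the coverage of each gene in 20 bp bins from 520 bp upstream to 1600 bp downstream of the TSS, for each strand and relative to the library mean. The submitters' processing notes name CASAVA 1.7.0, and the aligner and genome build are not given in the sources used here. Cells with the letter R or NaN (1.6%) were treated as missing, and 37956 rows under 6 further names were not used. Depth, read from the smallest step of the deposited values, was 2.57 to 78.1 reads per bin and limits the 0 and 4 min libraries of replicate 1 most.

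Profiles were means over genes of both strands. Peak and trough bins were set on the bulk profile of all genes. Differences were tested by exact sign flips over 12 nascent libraries and exact permutation of late against early libraries, with Benjamini-Hochberg adjustment over 3 and 4 comparisons. Single genes were tested with limma 3.58.1 in R 4.3.3 on log2(value + 0.1), adjusted over all genes with signal above 0 in all 8 libraries, and the scripts were tested on simulated data. Chromosome 12 was left out. Columns of coordinates were not carried to R64, and 5699 genes were matched there by name.

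Libraries of a replicate are paired by their shared culture per the labels. Deviations of the same replicate correlated between -0.0263 and 0.0861 over 10 pairs of time points. Named genes were the 10 closest to an origin, up to 5 per direction past each limma test and changed alike in both replicates (3 per direction by unadjusted p where none passed), the 5 highest and 5 lowest nascent over bulk, and *TRP1*. The further genes past the signal test were named after their values were seen. Members and lists were chosen with earlier results of these data known. Alternatives covered gene sets, windows, strands, libraries, pseudocounts, normalization and origin annotation.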

Additional observations from a re-analysis of the deposited data

Results flagged for a closer look

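In replicate 2, the 25 min library stood apart from the other 5 by Dixon's test on 4 measures of near-origin genes: the promoter ratio (1.13), the log2 promoter ratio of near over far (0.0059), the listed origin depletion (1.09) and the annotated origin depletion (1.08). In replicate 1, the 0 min library stood apart in annotated origin depletion (0.891) and the 4 min library in the near minus far peak/trough ratio (0.0061), and these were the shallowest libraries, at 2.57 and 4.94 reads per bin. Chance flags about 1 in 20 of the 28 sets tested. The part of depth or of the time points in these values was not tested.

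The log2 leading over lagging signal differed between near-origin and distant genes by -0.0500 on average over 12 nascent libraries (exact sign-flip p = 0.000488), with 12 of 12 below 0. The window of 151 near-origin genes holds the listed origin, where leading and lagging strands swap, and the part of this was not tested.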

How the results depend on the processing

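Of 256 recomputed values, 200 kept their direction and their side of the threshold or stayed within 1.5 times the main count. The late-early change of near over far signal kept its sign in every alternative run, and passed 0.05 with 0 to 4 against 8 to 25 min (0.1237, adjusted p = 0.0317). Near over far signal averaged over nascent libraries was -0.0415 against all genes over 1 kb away, and passed on the reverse strand (0.0505), with 1 gene per origin (0.0531), among genes replicating before the median (0.0831) and without the 0 min library. Leaving out libraries or replicates gave 0.0224 to 0.0419 for signal, 0.0818 to 0.0925 for the promoter and -0.0252 to -0.0201 for the peak/trough ratio, and late-early changes of 0.0928 to 0.1188, -0.0347 to -0.0214 and -0.0188 to 0.0064. The late-early change of the promoter difference was 0.0029 on the reverse strand and 0.0470 with annotated origins, where that of the peak/trough ratio was 0.0033. Listed origin depletion, 0.0007, turned to -0.0040 with medians, -0.0108 within 500 bp, -0.0069 within 2 kb, -0.0012 with chromosome 12, -0.0432 on the reverse strand, -0.0070 without bins at 0, -0.0082 with 1 gene per origin and -0.0228 with annotated origins, and ranged from -0.0116 to 0.0115 with libraries left out. Near-origin genes called by limma for signal were 13 (95 of all genes). They numbered 36 (214 of all) with a pseudocount of 1, 5 (41) with 0.01 and 0 (6) with no filter. They numbered 34 (229) with quantile normalization, 37 (252) with a replicate block and 26 (203) for 2 against 15 min. Without replicate 1 they numbered 0 (4 of all), and without replicate 2 also 0 (2 of all). With a replicate block the exact p of the signal and promoter changes was 0.0556, which changes no call. The causes were not tested. Depth and 1 bulk library limit all single-gene values.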
